A study of Homo sapiens with 2 samples.

Results

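The insulin-like growth factor (IGF) genes described here are 9 symbols of the deposited table of 58735 genes. They were taken by name and comprise the ligands IGF1 and IGF2, the receptor IGF2R and the binding proteins IGFBP2, IGFBP3, IGFBP4, IGFBP5, IGFBP6 and IGFBP7. The table holds 10 rows for them, since IGF2 stands under the identifiers ENSG00000167244 and ENSG00000284779. RNA of SF-539 cells, an established human glioblastoma line, was sequenced in 2 libraries, 1 from cells carrying the nontargeting pGIPZ-CTRL lentivirus (shControl) and 1 from cells carrying a lentiviral shRNA against FKBP9 (shFKBP9). FKBP9 encodes a prolyl isomerase of the endoplasmic reticulum. Both populations were selected as stable clones with puromycin, grown in DMEM with 10% FBS and labelled with passages 15 to 18. The labels do not say which shRNA against FKBP9 was sequenced or how many clones each population holds. With 1 library per condition, no difference below has a replicate check, and a difference between these 2 libraries cannot be told apart from an effect of the knockdown.

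IGF1 and IGF2 are secreted growth factors that signal through the receptor kinase IGF1R. The related proteins IGFBP1 to IGFBP6 bind the ligands with high affinity, carry them outside the cell and release them when proteases cut the binding protein, whereas IGFBP7 shares the IGFBP domain but binds IGFs weakly. IGF2R, the cation-independent mannose 6-phosphate receptor, takes up IGF2 for degradation in lysosomes and sorts lysosomal enzymes. IGFBP2 in particular is known from studies of glioblastoma.

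In SF-539 cells the binding proteins IGFBP6, IGFBP3, IGFBP4 and IGFBP7 and the receptor IGF2R were read at 17.4 to 379 FPKM (fragments scaled by gene length and library size), while almost no fragments lay on the ligands. IGFBP3 stood at 0.709 times and IGFBP6 at 0.777 times its shControl level in the shFKBP9 library. IGF2R stood at 0.864 times, IGFBP4 at 0.953 times and IGFBP7 at 1.15 times its shControl level. None of these members passed 2-fold.

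The windows before the RefSeq start sites of IGFBP3, the member with the lowest ratio, of IGF2R, which was lower as well, and of IGFBP4, whose ratio did not leave counting error, are shown so that the members can be compared at sequence level. Each is the 250 bases before the start, 5′ to 3′ on the strand of the gene, from RefSeq on GRCh38.p14, and matches to the motifs named below are in capitals. IGFBP3 lies at chr7:45921273-45921522 on the minus strand, IGF2R at chr6:159968832-159969081 and IGFBP4 at chr17:40443200-40443449, both on the plus strand.
IGFBP3: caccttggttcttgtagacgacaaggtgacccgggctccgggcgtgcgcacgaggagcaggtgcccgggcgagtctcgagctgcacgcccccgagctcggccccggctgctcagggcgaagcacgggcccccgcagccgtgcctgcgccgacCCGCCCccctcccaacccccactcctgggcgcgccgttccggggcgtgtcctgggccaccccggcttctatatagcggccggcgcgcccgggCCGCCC
IGF2R: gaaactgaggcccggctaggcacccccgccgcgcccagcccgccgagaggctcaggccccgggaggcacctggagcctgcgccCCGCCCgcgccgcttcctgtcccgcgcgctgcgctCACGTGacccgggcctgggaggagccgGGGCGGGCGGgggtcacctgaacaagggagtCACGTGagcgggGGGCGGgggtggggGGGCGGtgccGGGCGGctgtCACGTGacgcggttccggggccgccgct
IGFBP4: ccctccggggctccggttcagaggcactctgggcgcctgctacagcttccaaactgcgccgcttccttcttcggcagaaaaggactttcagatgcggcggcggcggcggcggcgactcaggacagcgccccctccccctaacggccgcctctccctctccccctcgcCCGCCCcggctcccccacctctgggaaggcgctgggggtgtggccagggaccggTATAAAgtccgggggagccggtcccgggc

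The RefSeq start of IGFBP3 lies 602 bases inside the gene as the deposited table gives it, and 0 bases of the 3 windows shown lie in exons of their gene in GENCODE release 44. The window of IGFBP6 was searched but is not shown, because 231 of its bases lie in an exon. On both strands, 6 motifs were searched: the TATA box (TATAAA), the GC box (GGGCGG), the E-box (CACGTG), the C/EBP-ATF element (TTGCATCA), the XBP1 element (TGACGTGG) and the ER stress element, CCAAT followed after 9 bases by CCACG. The E-box and the XBP1 element share the letters ACGTG. Of 35116 windows of this length in the table, 42.6% hold a GC box, 10.7% a TATA box, 6.34% an E-box, 0.772% a C/EBP-ATF element, 0.612% an XBP1 element and 0.074% an ER stress element. Of the 10 windows of the 7 members searched, 6 held a GC box, among them those of the 4 genes above, 2 times in IGFBP3, 1 time in IGFBP6 and in IGFBP4, and 6 times in IGF2R, where a pair of them shares 2 bases. The window of IGFBP5, both windows of IGF1 and 1 of 3 of IGFBP2 held 0 GC boxes. IGFBP4 alone among the 10 windows holds TATAAA, from position -29 to -24 before the start. IGF2R holds 3 E-boxes, and the other windows hold none. The last 3 motifs were matched in none of these windows. The content of G and C was 76.0% for IGFBP3, 61.2% for IGFBP6, 79.2% for IGF2R and 71.6% for IGFBP4. Windows were found for 7 of the 9 members. IGF2 and IGFBP7 had none.

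The shControl library held 18116873 fragments on genes and the shFKBP9 library 17158514. FKBP9, the targeted gene, was read by 4659 fragments in the control and by 415 after knockdown, so that 9.39% of its FPKM remained (log2 ratio -3.38). The labels call the cells epithelial glioma cells, and some markers of each kind were detected and others nearly absent. VIM was at 277 FPKM in shControl and 295 in shFKBP9 and NES at 2.36 and 2.17, but GFAP, OLIG2, SOX2 and S100B stayed under 1 FPKM in both libraries. Of the 4 epithelial markers, KRT8 was at 1.28 FPKM in shControl and 1.09 in shFKBP9, EPCAM was at 0.241 and 0.324 FPKM, KRT18 at 0.154 and 0.0905 FPKM, and CDH1 had 0 fragments and 1. The mesenchymal gene COL1A1 was at 837 and 884 FPKM, COL1A2 at 449 and 496, and 3 of 4 fibroblast markers exceeded 1 FPKM in both libraries. On the 5 keratinocyte markers lay 15 fragments in shControl against 64 in shFKBP9, and on the 5 plasma cell and blood markers 4 against 43. The part of such fragments in the values below was not tested.

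**Figure D1:**
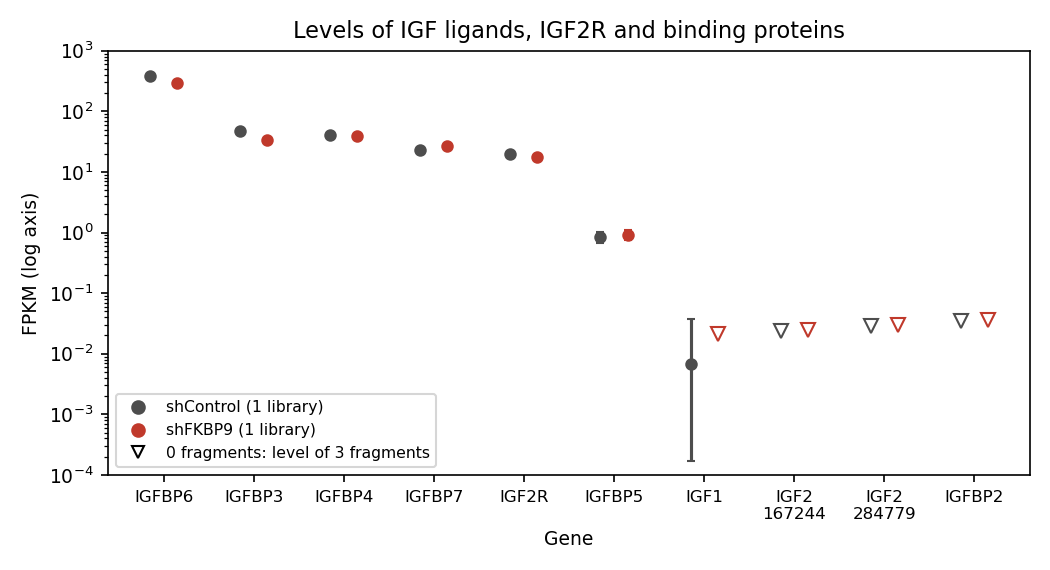
FPKM on a log axis for the 10 rows of the 9 members, in shControl (grey) and shFKBP9 (red). Points are the single libraries, bars exact Poisson 95% intervals of the fragments, and open triangles mark the level of 3 fragments where none was counted. IGFBP6 stands at 379 and 295 FPKM, above every other member, and IGF1, IGF2 and IGFBP2 lie at or under the level of 3 fragments.

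The ligands were almost without fragments. IGF1, a secreted ligand of IGF1R (ENSG00000017427, chromosome 12, 102395874 to 102481744 of hg38), was read by a single fragment, in shControl, and by 0 in shFKBP9. IGF2, the ligand of both receptors (chromosome 11, 2129112 to 2149603 for ENSG00000167244), had 0 fragments in either library under either identifier. A count of 0 allows up to 3 fragments, which is 0.0215 FPKM for IGF1 in shFKBP9, and 0.0237 FPKM in shControl and 0.0250 FPKM in shFKBP9 for ENSG00000167244. No ratio is reported for IGF1 or IGF2. The limit of 3 fragments is lower than the upper end of the two-sided exact Poisson interval, which is 0.0292 FPKM for ENSG00000167244 in shControl and 0.0308 FPKM in shFKBP9.

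The counts of both ligands are limited by the annotation. In the table, the first IGF2 row is overlapped by 5 other genes, among them the second IGF2 row and the read-through gene INS-IGF2, and all of these had 0 fragments in both libraries. In GENCODE release 44, 43.2% of the exonic bases of ENSG00000167244 and 94.8% of those of ENSG00000284779 were shared with exons of another gene on the same strand. The gene models of this release are not those that were counted. ENSG00000284779 has 2861 exonic bases in it but a length of 5851 bases in the deposited data, and ENSG00000167244 has 7146 and 6979. The shares need not hold for the models counted. For IGF1 no exonic base was shared on the same strand, but 82.5% were shared with the long noncoding gene HELLPAR on the opposite strand, on which 64 fragments were counted in shControl against 63 in shFKBP9. The strand setting of the counting, and how it treated fragments on bases that genes share, are not given in the sources used here. The values of IGF1 and IGF2 therefore limit only the fragments assigned to these genes.

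IGFBP2 (ENSG00000115457, chromosome 2, 216632828 to 216664436), a binding protein with preference for IGF2, had 0 fragments in both libraries. No other gene of the table overlaps it, and no exonic base was shared in GENCODE release 44. The limit of 3 fragments corresponds to 0.0348 FPKM in shControl and 0.0367 in shFKBP9. IGFBP2 mRNA was thus not detectable at this depth in either library.

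IGFBP6 was the most abundant member. It encodes a binding protein that prefers IGF2 over IGF1 (ENSG00000167779, chromosome 12, 53097436 to 53102345; 4 exons in the canonical transcript). Its level was 379 FPKM in shControl (exact Poisson 95% interval 371 to 387, from 9238 fragments) and 295 FPKM in shFKBP9 (288 to 302, from 6808 fragments). By FPKM it was gene number 70 of the table in shControl and number 110 in shFKBP9. The log2 ratio of shFKBP9 to shControl, with 0.1 added to both values, was -0.36 (95% Clopper-Pearson interval of the fragments -0.41 to -0.32). The 2 intervals of the level did not overlap, so the difference exceeded counting error, which is the only error these intervals cover. No exonic base of IGFBP6 was shared with another gene.

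IGFBP3, the main carrier of IGFs in serum (ENSG00000146674, chromosome 7, 45912245 to 45921874; 5 exons), had the lowest ratio. It was at 47.6 FPKM in shControl (46.1 to 49.1, 3939 fragments) and at 33.7 FPKM in shFKBP9 (32.4 to 35.0, 2644 fragments). The log2 ratio was -0.50 (-0.57 to -0.43). The shFKBP9 library was again the lower one, with no overlap of the counting intervals. No exonic base of IGFBP3 was shared either.

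IGF2R, the receptor without kinase activity (ENSG00000197081, chromosome 6, 159969099 to 160113507; 48 exons), was at 20.1 FPKM in shControl (19.6 to 20.6) and at 17.4 FPKM in shFKBP9 (16.9 to 17.8). Because the gene is long, these levels rested on 6495 and 5315 fragments. The log2 ratio of -0.21 (-0.27 to -0.16) placed shFKBP9 lower, by less than for IGFBP3 or IGFBP6. A pseudogene within IGF2R, AL353625.1, held 67 fragments in shControl against 72 in shFKBP9, few beside those of the gene.

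IGFBP4, a binding protein that PAPPA cleaves in the presence of IGFs (ENSG00000141753, chromosome 17, 40443461 to 40457731; 4 exons), was read by 1615 fragments in shControl against 1460 in shFKBP9. Its levels were 40.5 FPKM (38.6 to 42.6) and 38.7 FPKM (36.7 to 40.7). The log2 ratio was -0.07 (-0.17 to 0.03), a difference within counting error. Against IGFBP3, with which it shares a similar level in shControl, its log2 ratio was higher, the difference of IGFBP3 minus IGFBP4 being -0.43 (-0.56 to -0.30).

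IGFBP7 was the only member with at least 1 FPKM whose counting interval lay above 0. It encodes a secreted protein of the vessel wall and matrix (ENSG00000163453, chromosome 4, 57030773 to 57110385; 5 exons), and its fragments numbered 805 in shControl against 875 in shFKBP9. Its level was 23.0 FPKM (21.5 to 24.7) and 26.4 FPKM (24.7 to 28.2). The log2 ratio was 0.20 (0.06 to 0.34). Of its exonic bases, 18.3% were shared with opposite-strand exons of POLR2B, a gene with 2620 and 2511 fragments, and of IGFBP7-AS1, with 2 and 0.

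IGFBP5, which binds to extracellular matrix (ENSG00000115461, chromosome 2, 216672105 to 216695525; 4 exons), stayed under 1 FPKM. Its fragments numbered 98 in shControl against 102 in shFKBP9, or 0.840 FPKM (0.682 to 1.02) and 0.922 FPKM (0.752 to 1.12). The log2 ratio of 0.12 had an interval from -0.28 to 0.55, so that neither a difference like that of IGFBP7 nor equality could be told at this depth.

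Of the 9 members, 5 reached 1 FPKM in at least 1 library, and these 5 did so in both, so none passed this minimum through 1 library alone. Past 2-fold were 0 of these 5, beside 4.21% of the 12741 genes of the table that reached this minimum. Past 1.5-fold were also 0 of 5, beside 8.68% of those genes. The counting interval lay below 0 for IGFBP3, IGFBP6 and IGF2R and above 0 for IGFBP7, 4 of 5 members. It excluded 0 for 37.9% of the genes with at least 1 FPKM, and for 53.4% of the 6393 genes with at least 1000 fragments in both libraries together, to which all 5 members belong. It lay below 0 for 20.8% and above 0 for 17.2% of the genes with at least 1 FPKM. Among the genes with at least 1000 fragments, it lay above 0 for 23.9% and below 0 for the remainder of the 53.4%. Both directions were thus more frequent at the depth of the members. An interval that excludes 0 was thus common at this depth.

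A fold of 1.2 was set after the values were seen. Among the genes with at least 1000 fragments, 7.12% lay past it on the lower side and 6.68% on the higher side. IGFBP3 and IGFBP6, 2 of the 5 members, lay past it on the lower side and 0 on the higher. IGFBP3 had 30 of the 6393 genes below it (0.469%) and IGFBP6 had 140 (2.19%). IGF2R had 766 of these genes below it and IGFBP4 had 2428, while IGFBP7 had 757 above it. The median log2 ratio of the 5 members was -0.21 and that of the 6393 genes -0.02.

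**Figure D2:**
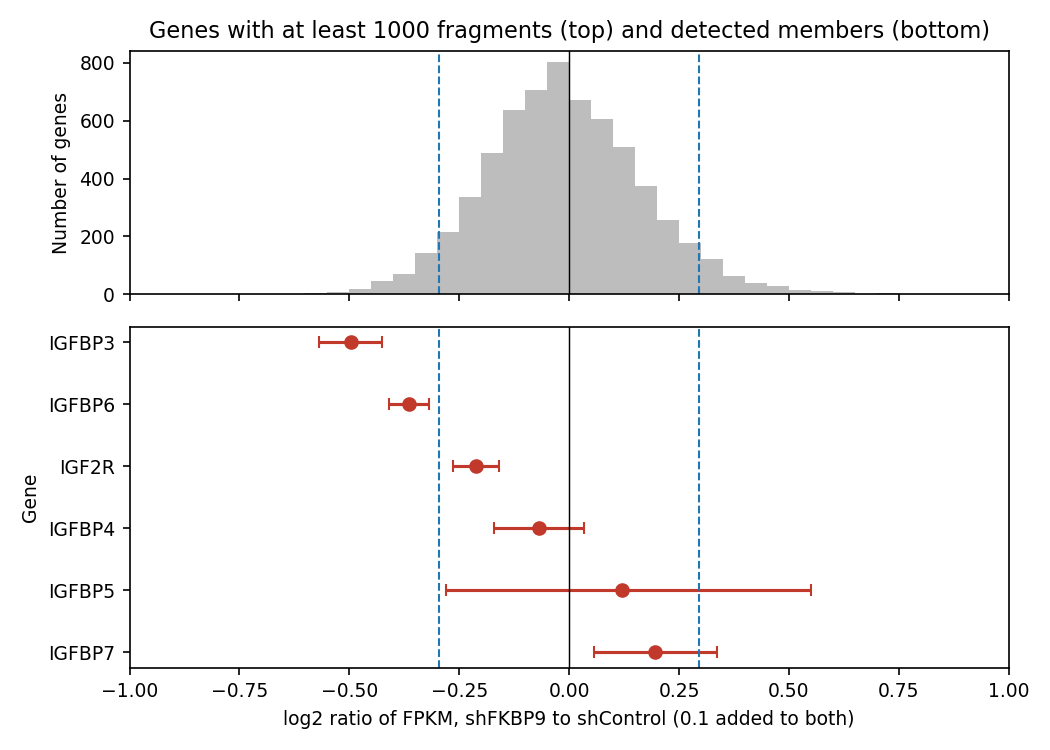
Top, number of genes with at least 1000 fragments by log2 ratio of FPKM in shFKBP9 to shControl, without the genes beyond the axis, FKBP9 among them. Bottom, the same ratio for the 6 members with more than 3 fragments, with 95% counting intervals as bars. Dashed lines mark the 5th and 95th percentiles of the genes above, -0.30 and 0.29. IGFBP3 at -0.50 and IGFBP6 at -0.36 lie outside them, and the other members within.

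The log2 ratios of the members were compared in pairs. The 6 members with more than 3 fragments form 15 pairs, and for 12 of these the exact conditional 95% interval of the difference between their log2 ratios excluded 0, with counting error alone considered and no adjustment over the pairs. The share among pairs of other genes was not computed, and the count is not read as particular to the members. IGFBP3 lay below IGFBP6 by a difference of -0.13 (-0.22 to -0.05) and below IGFBP7 by -0.70 (-0.85 to -0.54). IGFBP6 lay below IGFBP7 by -0.56 (-0.71 to -0.41). The 3 pairs whose interval included 0 all contained IGFBP5, with IGF2R, IGFBP4 and IGFBP7.

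The order of the levels per length was IGFBP6, IGFBP3, IGFBP4, IGFBP7, IGF2R and IGFBP5 in shControl. In shFKBP9 IGFBP4 stood before IGFBP3, and the order was otherwise the same. In each library no neighbours in this order had overlapping Poisson intervals. IGFBP3 exceeded IGFBP4 by a factor of 1.17 in shControl, and IGFBP4 exceeded IGFBP3 by a factor of 1.15 in shFKBP9. IGFBP6 exceeded the next member by factors of 7.96 in shControl and 7.62 in shFKBP9.

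Summed over the 6 binding proteins IGFBP2 to IGFBP7, the level was 491 FPKM in shControl and 394 FPKM in shFKBP9 (log2 ratio of the sums -0.32). Their fragments numbered 15695 and 11889, with a log2 ratio of -0.32 (-0.36 to -0.29). IGFBP6 made up 77.2% of the summed FPKM in shControl and 74.7% in shFKBP9. IGFBP3 made up 9.69% and 8.54%, IGFBP4 8.26% and 9.80%, IGFBP7 4.69% and 6.70%, and IGFBP5 0.171% and 0.234%. Of the difference of -96.8 FPKM between the sums, IGFBP6 accounted for -84.4 FPKM and IGFBP3 for -13.9 FPKM. Without IGFBP6 the sums were 112 FPKM and 99.7 FPKM (log2 ratio -0.17).

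**Figure D3:**
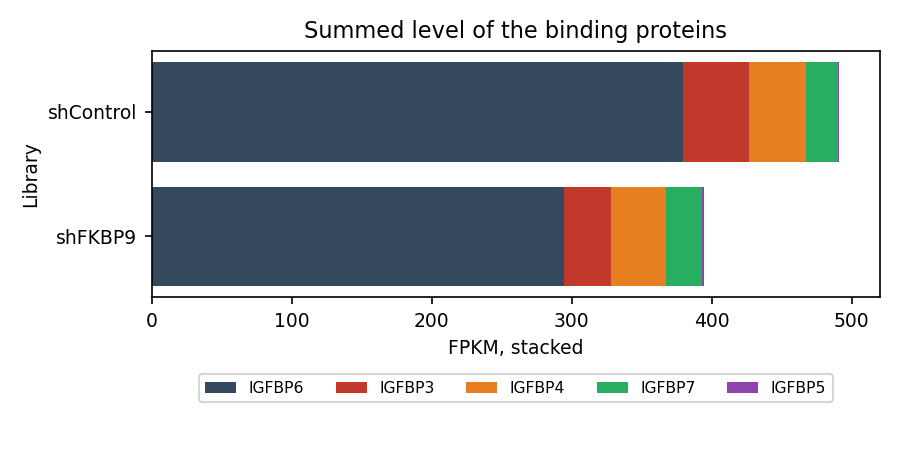
FPKM of the 5 detected binding proteins, stacked, in the shControl and shFKBP9 libraries (1 library each, no error bars). The stack ends at 491 FPKM in shControl and at 394 FPKM in shFKBP9, and IGFBP6 takes up most of it in both.

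The other genes of the IGF system were described from a list of 62 genes grouped by role, all found in the table. Of these, 46 reached 1 FPKM in at least 1 library. Past 2-fold were 0 of them, and past 1.5-fold were 4, with STC2, CCN1 and CCN2 higher and CCN5 lower in shFKBP9. The 4 of 46 are about the same share as the 8.68% of all genes with at least 1 FPKM that lay past 1.5-fold. The kinase receptors IGF1R and INSR had log2 ratios of -0.11 (-0.25 to 0.02) and -0.02 (-0.22 to 0.18), both within counting error. IGF1R was at 3.68 FPKM in shControl and 3.40 in shFKBP9, well under IGF2R on the same scale.

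The remaining carriers stayed under 1 FPKM. IGFBP1, the binding protein regulated by insulin in liver, was at 0.936 FPKM in shControl and 0.881 in shFKBP9, from 28 and 25 fragments (log2 ratio -0.08, -0.93 to 0.74). IGFALS, which holds IGFBP3 and ligand in the ternary complex of serum, had 1 fragment and 0. H19, the noncoding neighbour of IGF2, was read by 3 fragments in shControl against 1 in shFKBP9, and INS-IGF2 by 0 in both.

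Of the 8 listed proteases of the binding proteins and inhibitors of these proteases, 6 reached 1 FPKM. The counting intervals of these 6 lay above 0, as did those of 17.2% of all genes with at least 1 FPKM and 23.9% of those with at least 1000 fragments. The median log2 ratio of the 6 genes with at least 1 FPKM was 0.28, beside -0.02 over all genes with at least 1 FPKM. STC2, a stanniocalcin that inhibits PAPPA, was at 38.4 FPKM in shControl and 64.4 in shFKBP9 (log2 ratio 0.75, 0.69 to 0.80). STC1, its relative, was at 54.2 and 73.8 FPKM (0.44, 0.38 to 0.50). HTRA1, a serine protease that cleaves IGFBP5, was at 183 and 241 FPKM (0.39, 0.35 to 0.44). The proteases PAPPA and ADAM12 and the lysosomal protease CTSD had ratios between 0.12 and 0.16. Whether levels of protease or binding protein moved together was not tested.

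Among 7 adaptors with at least 1 FPKM, IRS1, the docking protein of IGF1R and INSR, was at 36.0 FPKM in shControl and 29.2 in shFKBP9 (log2 ratio -0.30, -0.36 to -0.25). IRS2 was at 1.79 and 2.05 FPKM (0.18, -0.05 to 0.44) and GRB10, an inhibitory adaptor, at 11.8 and 13.1 FPKM (0.14, 0.06 to 0.23). Among 18 genes of the PI3K and AKT branch, the interval lay above 0 for 3 and below 0 for 5, beside 17.2% and 20.8% of all genes with at least 1 FPKM, and their median was -0.01. The largest ratios of this branch were lower in shFKBP9, with MTOR at -0.33 (-0.42 to -0.26), TSC2 at -0.33 (-0.47 to -0.21) and FOXO4 at -0.40 (-0.85 to -0.01). The IGF2 mRNA binders IGF2BP2 and IGF2BP3 had ratios of -0.01 (-0.11 to 0.09) and 0.15 (-0.01 to 0.32).

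**Figure D4:**
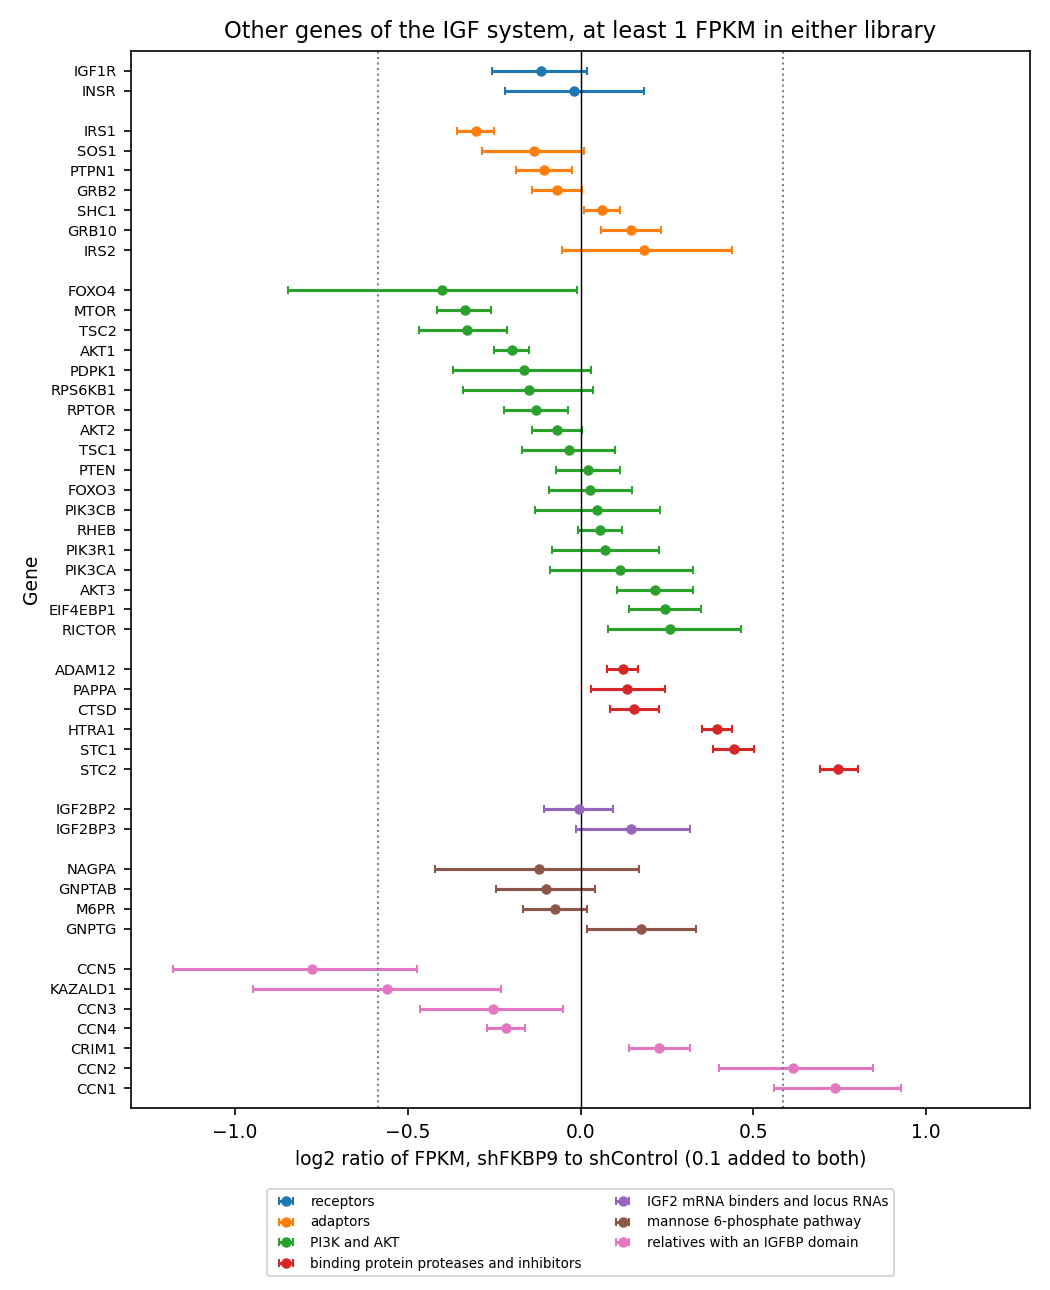
Log2 ratio of FPKM in shFKBP9 to shControl for the 46 listed genes that reached 1 FPKM in at least 1 library, coloured by role, with 95% counting intervals as bars. Dotted lines mark 1.5-fold. The 6 proteases and inhibitors lie to the right of 0, from 0.12 to 0.75, and the receptors IGF1R and INSR span 0.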

How the data were processed

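RNA of 1 shControl and 1 shFKBP9 culture of SF-539 cells was sequenced. The authors removed reads with adapters, undetermined bases or low quality, aligned paired-end reads to hg38 with HISAT2 2.0.5, counted them per gene with featureCounts 1.5.0-p3 and deposited FPKM per gene. Their annotation release is not given in the sources used here. The values rest on library sizes that are 0.999 and 1.00 times the fragments on genes.

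Fragments were recovered as FPKM times gene length divided by the smallest step of the library, and 100% of the values above 0 were whole to within 0.01 fragments. On 1 kilobase, 1 fragment is 0.0552 FPKM in shControl and 0.0582 in shFKBP9. Log2 ratios were computed with 0.1 added to FPKM. Intervals at 95% (Clopper-Pearson for ratios, Poisson for levels, conditional for differences of ratios) cover counting error only. With 1 library per condition nothing was tested between them. A count of 0 was read as at most 3 fragments.

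The members and lists were chosen with earlier results of these data known. Named are all members, FKBP9, marker genes, listed genes past 2-fold, the 3 largest ratios per role with at least 50 fragments, and IGF1R, INSR, IGFBP1, IGFALS, INS-IGF2 and H19. Other listed or overlapping genes were named after their values were seen. Alternatives were 1 or 0.01 added to FPKM, scaling by the median ratio, TPM, other minimums and a 99% interval. Fragment recovery, intervals and fold counts were tested on simulated Poisson counts. The simulation held no variation between libraries beyond counting, and its spiked changes were far larger than the differences of the members. Detection of differences as small as theirs was not tested. Exon overlaps came from GENCODE release 44 and start windows from RefSeq. Among the members, the exonic bases in release 44 equal the deposited gene length only for IGFBP6 and IGFBP7. Calculations used scipy 1.17.1, pandas 2.3.3 and numpy 2.4.6 under Python 3.11.15, and figures matplotlib 3.10.9.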

Additional observations from a re-analysis of the deposited data

How the results depend on the processing

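With 1 added to FPKM, the log2 ratio of FKBP9 was -3.16 and 2 listed IGF genes, in place of 4, lay past 1.5-fold; both follow from the larger addition. With TPM, 5 listed genes lay past 1.5-fold. Without a minimum on FPKM, the median log2 ratio of the members was -0.03, since the rows of IGF1, IGF2, IGFBP2 and IGFBP5 then enter as well; the ratios of IGF1, IGF2 and IGFBP2, with 0 or 1 fragments, are set by the 0.1 added, so this shift toward 0 was fixed by construction and says nothing about stability. All other alternatives run (66 of 69) kept the direction, with counts within 1.5 times the main count and ratios within the counting interval of the main value (for the median, that of the member at the median), including 24 of 24 log2 ratios of single members. Before the addition of 0.1, the scaling by the median ratio moves the log2 ratio of every gene by 0.02 and TPM by -0.02. IGFBP3 and IGFBP6 remained past 1.2-fold on the lower side under both additions and both scalings. This was fixed by construction too, since the scalings shift by 0.02 and the additions are small beside the FPKM of these genes. A shift of 0.02 also lies within the counting interval of every detected member, so the scalings could not move a single ratio out of it. Depth limits IGFBP5, IGF1, IGF2 and IGFBP2. No paired analysis was possible because each condition has 1 library, and for the same reason none could be left out.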

Other observations

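Several relatives that carry an IGFBP domain without being classical binding proteins lay farther from 0 than the members. Of 9 such genes, 7 had at least 1 FPKM, and their counting intervals lay above 0 for 3 and below 0 for 4, where the interval excluded 0 for 37.9% of all genes with at least 1 FPKM. CCN1, a matrix protein listed as CYR61, was at 9.04 FPKM in shControl and 15.1 in shFKBP9 (a log2 ratio of 0.74, 0.56 to 0.93), and CCN2, listed as CTGF, at 6.66 and 10.3 (0.62, 0.40 to 0.85). CCN5, listed as WISP2, was at 2.17 and 1.23 FPKM (-0.78, -1.18 to -0.47), from 196 and 105 fragments. KAZALD1 was at 2.61 and 1.74 FPKM (-0.56).

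The members IGFBP3 and IGFBP5 each lie tail to tail with another binding protein gene. IGFBP1 ends 18.6 kilobases from IGFBP3 on chromosome 7 and, as given above, stayed under 1 FPKM. IGFBP2 ends 7.67 kilobases from IGFBP5 on chromosome 2, where IGFBP5 had 98 and 102 fragments and IGFBP2 had 0 in both libraries.

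For the mannose 6-phosphate pathway, whose tag the other ligands of IGF2R carry, 4 of 4 listed genes had at least 1 FPKM. M6PR, itself a receptor of the tag, had a log2 ratio of -0.07 (-0.17 to 0.02). GNPTG, a subunit of the enzyme that makes the tag, had a log2 ratio of 0.17 (0.02 to 0.33), GNPTAB, its partner, one of -0.10 (-0.24 to 0.04) and NAGPA, the uncovering enzyme, one of -0.12 (-0.42 to 0.17).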
